A study of Mus musculus with 4 samples.

Results

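The cells described here are a small set of tumour-infiltrating CD8 T cells that were picked out by their raw counts of unique molecular identifiers (UMIs, one per captured RNA molecule). A cell belonged to the set when its summed UMIs of Gbp2, Igtp and Ms4a4c reached 3 and it held at least 1 UMI of Id3 or Treml2. It also had to stay within upper bounds on other programmes: at most 2 UMIs of the effector chemokine Ccl5, at most 2 summed over the type I interferon-stimulated genes Isg15, Ifit1, Ifit3, Rsad2 and Usp18, at most 1 over Klra1, Klra3, Klra6 and Klra7, none of the exhaustion receptor Havcr2, and at most 1 over the cycling genes Mki67, Top2a, Birc5 and Ube2c. After barcodes with fewer than 500 genes or over 10% mitochondrial UMIs were set aside, 435 of 38316 cells met the rule. They are called gated cells below. The values of these 20 genes chose the cells, so their levels in the gated cells are a description.

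The samples were CD8 T cells from B16F10 melanomas grown in C57BL/6J mice aged 6 to 8 weeks, dissociated, sorted alive on CD45, CD3 and CD8, and sequenced with a 10x Genomics 5-prime chemistry. The labels divide them into sgArid1a, named for a guide RNA against Arid1a (a chromatin remodelling gene of the SWI/SNF family), and sgScr, with 2 libraries each. B16F10 is an established mouse melanoma line. Neither the carrier of the guide (tumour cells or host) nor the source of the replicates (separate mice or pools) is given in the labels, so each p-value measures the spread between these libraries only. The sgArid1a libraries held 82 and 206 gated cells, and the sgScr libraries 76 and 71. The gated cells carried 335437 and 1154943 UMIs in sgArid1a and 409256 and 414871 UMIs in sgScr, so sgArid1a replicate 2 supplied most of the gated material of its group. Pairs of libraries shared between 78 and 231 cell barcodes.

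Interferon-gamma binds its receptor, the kinases JAK1 and JAK2 are activated, and gamma-activated sites (GAS) in promoters are then bound. The best known target genes encode the guanylate-binding proteins, such as Gbp2, and the immunity-related GTPases, such as Igtp (Irgm3). Some members of these families attack the membranes around intracellular pathogens in mouse cells. Type I interferons act through a complex with IRF9 on the interferon-stimulated response element (ISRE), and the same GTPases respond to both, so their transcripts do not tell which interferon a cell met. Ms4a4c encodes a four-pass membrane protein of lymphocytes, Id3 an inhibitor of E proteins that is kept on in naive and memory-precursor T cells, and Treml2 a surface protein of the TREM family.

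The promoter windows of the 3 genes that chose the cells are shown because the rule rests on them, with those of Gbp5 and Gbp7, which were not used by the rule and were high in the gated cells. Sequences are from RefSeq (GRCm38.p6), 250 bases before to 50 after the transcription start, with each match to GAS (TTCNNNGAA) or ISRE (GAAANNGAAA, or TTTCNNTTTC on the other strand) in capitals. Of 23 genes looked up, 16 had a window.
Gbp2 (chr3:142620413-142620712, plus strand): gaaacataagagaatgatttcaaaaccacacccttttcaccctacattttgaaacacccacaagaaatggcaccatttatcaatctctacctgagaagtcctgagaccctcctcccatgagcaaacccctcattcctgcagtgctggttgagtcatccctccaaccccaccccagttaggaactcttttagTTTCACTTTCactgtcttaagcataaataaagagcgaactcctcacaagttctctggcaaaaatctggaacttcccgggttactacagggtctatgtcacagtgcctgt
Igtp (chr11:58199306-58199605, plus strand): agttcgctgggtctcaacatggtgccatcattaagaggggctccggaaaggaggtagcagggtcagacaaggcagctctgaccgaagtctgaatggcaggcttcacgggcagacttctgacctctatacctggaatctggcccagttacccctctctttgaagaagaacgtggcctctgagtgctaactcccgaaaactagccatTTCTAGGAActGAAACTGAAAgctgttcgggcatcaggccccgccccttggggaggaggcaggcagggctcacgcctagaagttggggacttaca
Ms4a4c (chr19:11407411-11407710, plus strand): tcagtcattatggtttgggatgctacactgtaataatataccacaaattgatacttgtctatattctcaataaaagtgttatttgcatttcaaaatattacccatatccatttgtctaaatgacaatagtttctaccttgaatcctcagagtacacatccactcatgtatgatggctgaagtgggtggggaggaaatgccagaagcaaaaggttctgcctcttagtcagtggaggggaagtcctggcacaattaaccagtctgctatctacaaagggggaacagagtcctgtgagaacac
Gbp5 (chr3:142496684-142496983, plus strand): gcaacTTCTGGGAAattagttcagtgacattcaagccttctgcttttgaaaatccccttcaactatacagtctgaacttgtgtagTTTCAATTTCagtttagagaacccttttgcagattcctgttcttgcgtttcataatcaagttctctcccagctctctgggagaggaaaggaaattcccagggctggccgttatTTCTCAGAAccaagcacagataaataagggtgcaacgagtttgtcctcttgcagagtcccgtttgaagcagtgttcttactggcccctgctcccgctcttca
Gbp7 (chr3:142530086-142530385, plus strand): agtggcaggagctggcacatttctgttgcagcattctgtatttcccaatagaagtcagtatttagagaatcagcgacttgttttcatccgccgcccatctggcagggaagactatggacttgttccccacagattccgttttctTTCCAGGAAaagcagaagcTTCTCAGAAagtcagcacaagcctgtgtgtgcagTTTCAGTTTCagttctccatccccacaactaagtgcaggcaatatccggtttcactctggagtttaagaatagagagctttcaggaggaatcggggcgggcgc
The Gbp2 window held 1 ISRE match that starts 59 bases before the transcription start. The Igtp window held a GAS match 45 bases before the start and an ISRE match next to it. Gbp5 and Gbp7 each held 2 GAS matches and 1 ISRE match, and neither motif was in the Ms4a4c window. Of the 16 genes, 7 held GAS, 6 held ISRE, 4 held both and 7 held neither in any window. GAS was also in windows of Il7r and Tsc22d3, which had lower levels in gated than in counterpart cells. Over 32851 mouse promoter windows of the same length, 8.30% held GAS, 3.44% held ISRE and 0.454% held both. A match is a description of letters and not a mapped binding site.

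By their other transcripts the gated cells were CD8 T cells. The 12 CD8 T cell markers summed to 5605 and 6708 UMIs per 1000000 (CPM) in gated cells of sgArid1a and 6402 and 6236 CPM in those of sgScr, against 6409 to 6911 CPM in all other kept cells. Cd4 was at 0 in all 4 libraries. Of the markers of cells outside the sort, 8 of 11 macrophage and monocyte genes, 6 of 8 melanoma genes and 4 of 9 dendritic cell and MHC class II genes were at 0 in the gated cells, Lyz2, Csf1r, Mlana and Pmel among them. Also at 0 were 2 of 6 CD4 and regulatory T cell genes, 3 of 6 gamma-delta T cell genes, 1 of 7 natural killer cell genes and 1 of 9 B cell genes. The B cell list summed to 164 and 206 CPM in sgArid1a and 173 and 200.1 CPM in sgScr, mainly Ighm at 146 to 176 CPM, against 143 to 189.8 CPM in all other cells. The natural killer list summed to 95.4 and 78.8 CPM in sgArid1a and 53.8 and 79.5 CPM in sgScr, against 82.2 to 119.8 CPM in all other cells. Most of the gated sum was Eomes, at 48.9 to 77.5 CPM, a gene that is also on the memory list, and Ncr1 was at 0. The summed macrophage list reached 77.5 and 97.0 CPM in sgArid1a and 90.4 and 89.2 CPM in sgScr, mostly from Cst3, which many cell types make. The summed melanoma list reached at most 2.44 CPM. The summed dendritic and class II list reached 77.5 and 113 CPM in sgArid1a and 90.4 and 116 CPM in sgScr gated cells. All other cells had 140 and 143 CPM in sgArid1a and 83.6 and 102 CPM in sgScr. Most of the gated sum was Cd74, at 58.6 to 96.4 CPM. H2-Aa, H2-Ab1 and H2-Eb1 had 13, 10 and 10 UMIs in sgArid1a replicate 2 and 0 in the other libraries. Cells with at least 5 UMIs of MHC class II, macrophage and B cell genes numbered 3 and 4 among the sgArid1a gated cells and 2 and 2 among the sgScr gated cells.

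The rule does not tell which interferon a cell met, since the GTPases respond to both kinds. Of the 435 gated cells, 279 held no UMI of the 5 type I interferon-stimulated genes. The rule held these genes to at most 2 UMIs, so that count is a description. Ifng itself, the cytokine gene, was at 11.9 and 3.46 CPM in sgArid1a and at 0 and 7.23 CPM in sgScr gated cells, against 118 and 115 CPM and 47.2 and 27.4 CPM in the other cells of the same libraries. Gbp2 was found in 290 gated cells, Igtp in 304 and Ms4a4c in 262. All 3 were held by 85 cells, and a single one of them by 99 cells. The gate sets much of their level, since 202 of the cells held exactly 3 summed UMIs, so likeness between groups is no result. Gbp2 had 253 and 320 CPM in sgArid1a and 281 and 260 CPM in sgScr, and Igtp 244 and 284 CPM in sgArid1a and 247 and 236 CPM in sgScr. Ms4a4c stood at 447 CPM in sgArid1a replicate 1 and at 232 CPM in replicate 2, with 220 and 246 CPM in sgScr.

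The share of cells in the gate did not separate the groups. Gated cells were 0.766% (95% Wilson interval 0.617 to 0.949) and 1.61% (1.41 to 1.84) of kept cells in sgArid1a, and 0.994% (0.795 to 1.24) and 0.990% (0.786 to 1.25) in sgScr. The sgArid1a libraries lie on either side of the sgScr ones. The means were 1.19% ± 0.598 in sgArid1a and 0.992% ± 0.00255 in sgScr (SD, n = 2 each; two-sided exact permutation p = 1, where the smallest p that 2 against 2 samples allow is 0.333). The intervals cover counting error only.

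The rule counts raw UMIs, so depth enters the share. Median UMIs per kept cell outside the gate were 2398 and 4002 in sgArid1a and 3741 and 3586 in sgScr, and gated cells had medians of 3340.5 and 5082.5 in sgArid1a and 4839 and 4961 in sgScr. With every cell thinned to 2000 UMIs, the share was 0.398% and 0.332% in sgArid1a and 0.254% and 0.107% in sgScr (exact permutation p = 0.333). The thinned gate held 27 and 39 cells in sgArid1a and 18 and 7 in sgScr. Thinning left out 3929 and 1050 of the kept cells in sgArid1a and 548 and 651 in sgScr.

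The share was also taken among cells that met every term other than the 3-gene sum. They numbered 698 and 1036 in sgArid1a and 1072 and 1054 in sgScr, of which 11.7% (9.57 to 14.3) and 19.9% (17.6 to 22.4) were gated in sgArid1a and 7.09% (5.70 to 8.78) and 6.74% (5.37 to 8.41) in sgScr. The groups did not overlap on this scale, with means of 15.8% ± 5.75 in sgArid1a and 6.91% ± 0.250 in sgScr (SD, n = 2 each; exact permutation p = 0.333). After thinning, the same share was 5.90% and 4.88% in sgArid1a and 2.53% and 1.03% in sgScr. At 2 against 2 libraries the exact test cannot pass a threshold of 0.05.

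**Figure D1:**
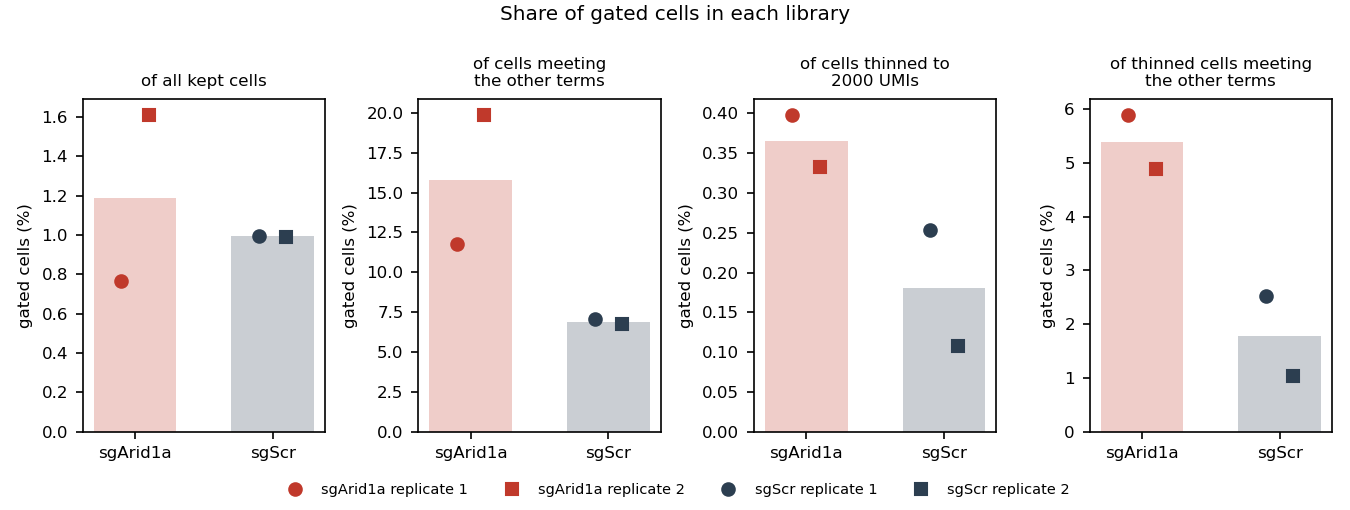
Share of gated cells in percent (y axis) in each library, as a share of all kept cells, of cells meeting the other terms of the rule, and of both after thinning to 2000 UMIs per cell. Points are libraries and bars are group means. Over all kept cells the sgArid1a points at 0.766% and 1.61% lie on either side of the sgScr points, and in the other 3 panels both sgArid1a points lie above both sgScr points.

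The gate cuts a scale of summed UMIs, with many cells just outside it. In sgArid1a, 46 and 83 gated cells stood just inside, at exactly 3 summed UMIs, and 82 and 157 cells stood just outside at 2. In sgScr, 40 and 33 stood just inside and 97 and 111 just outside. The guanylate-binding protein Gbp7 was at 132 and 86.7 CPM in sgArid1a and 68.1 and 87.5 CPM in sgScr just inside, and at 53.2 and 60.2 CPM in sgArid1a and 25.2 and 45.2 CPM in sgScr just outside. Cells with 0 summed UMIs had 48.6 and 42.6 CPM in sgArid1a and 40.3 and 34.4 CPM in sgScr. Averaged over the libraries, Gbp7 was at 41.5, 52.3, 45.9 and 93.5 CPM at 0, 1, 2 and 3 summed UMIs. It thus did not rise steadily below the gate. Tsc22d3, which encodes the glucocorticoid-induced protein GILZ, was highest in cells with 0. It was at 69.0 and 128 CPM in sgArid1a and 319.5 and 191 CPM in sgScr just inside, at 78.0 and 120 CPM and 376 and 396 CPM just outside, and at 190 and 272 CPM and 562 and 582 CPM in cells with 0. Median depth also rose along this scale, with 2208.5 and 3271.5 UMIs in sgArid1a and 3484 and 3350.5 in sgScr at 0 summed UMIs, against 5220.5 and 5169 in sgArid1a and 7115 and 5099.5 in sgScr at 5 or more. The part of depth in these differences was not tested.

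**Figure D2:**
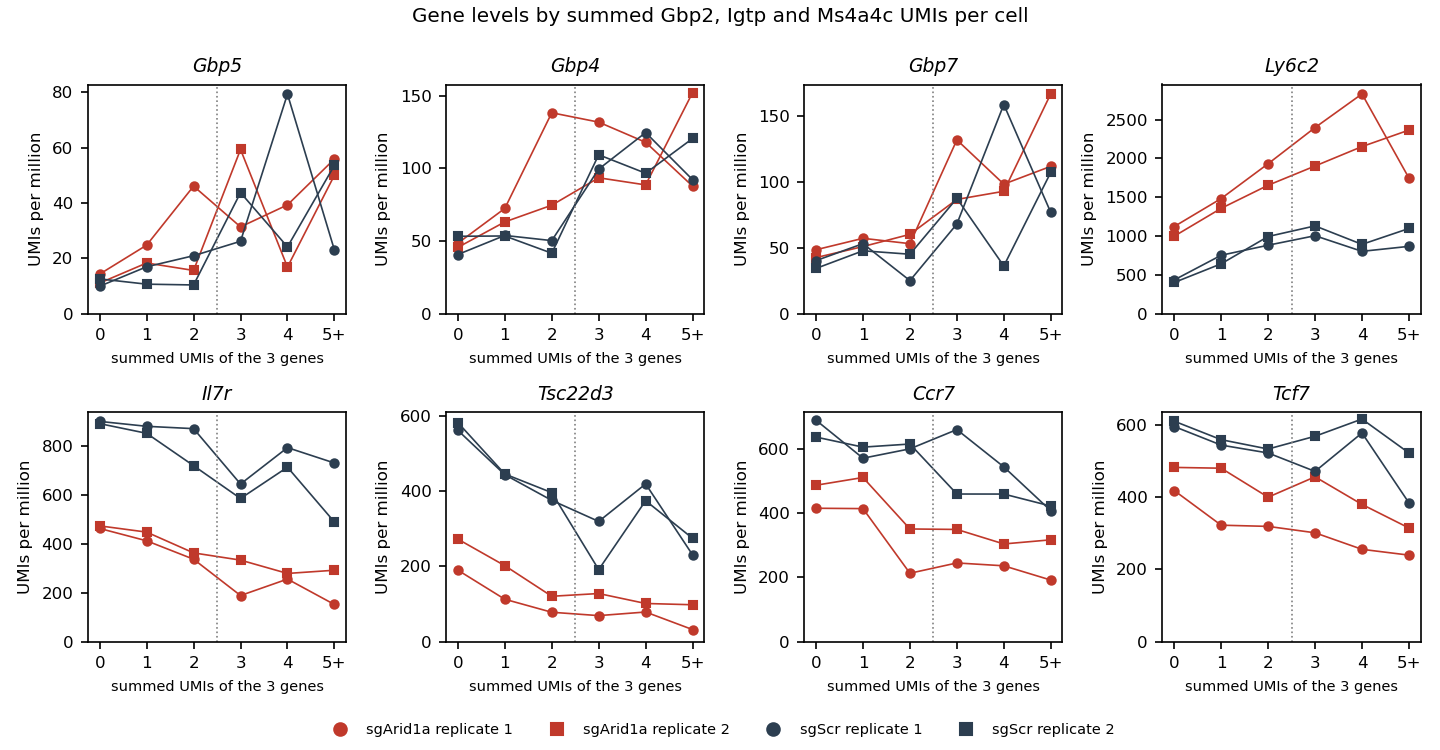
Level of 8 genes in CPM (y axis) against the summed UMIs of Gbp2, Igtp and Ms4a4c per cell (x axis, 5+ is 5 or more), 1 line per library, among cells that met the other terms. The dotted line marks the gate between 2 and 3. Gbp7 was higher at 3 summed UMIs (68.1 to 132 CPM) than at 2 (25.2 to 60.2 CPM) in each library, and Tsc22d3 was highest at 0, at 190 to 582 CPM.

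The nearest cells outside the rule were the 1985 counterpart cells, which met every other term but held no UMI of the 3 genes (364 and 444 in sgArid1a, 595 and 582 in sgScr). Since the rule fixed this contrast, the values below are a description with no test. Among genes that the rule did not use, other interferon-inducible GTPases stood highest in the gated cells. The ratios were ranked over 4998 genes at 20 CPM or more in either class. Of the 19 highest ratios given here, 10 belonged to the interferon lists. With no filter on level, 14 of the 15 GTPases on the list were higher in the gated cells of all 4 libraries and 0 were lower. Over all 14227 genes with a UMI in either class, 6.05% were higher and 10.4% lower in this way, a share that also depends on each gene's level. Among the 4998 genes at 20 CPM or more, 604 were higher and 772 lower in all 4 libraries. Reads of near-identical GTPases (Gbp family, Tgtp1 and Tgtp2, Igtp and Irgm2) may have been split between copies or dropped by the authors' counting.

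Iigp1, an immunity-related GTPase that coats parasite vacuoles, had 20.9 and 32.0 CPM in gated cells of sgArid1a and 24.4 and 26.5 CPM in those of sgScr. Counterpart cells had 4.42 and 1.24 CPM in sgArid1a and 1.36 and 4.85 CPM in sgScr. Its log2 ratio of 2.77 was the highest, and the 2 classes did not overlap. That ratio rests on few UMIs, 7 and 37 in sgArid1a and 10 and 11 in sgScr gated cells. Counterpart cells held 4 and 2 Iigp1 UMIs in sgArid1a and 3 and 10 in sgScr. The guanylate-binding protein Gbp5 had 41.7 and 46.8 CPM in gated cells of sgArid1a and 36.7 and 43.4 CPM in those of sgScr, against 14.4 and 11.1 CPM and 9.97 and 12.6 CPM in counterpart cells. Gbp7 had 119 and 121 CPM in gated cells of sgArid1a and 90.4 and 84.4 CPM in those of sgScr, against 48.6 and 42.6 CPM and 40.3 and 34.4 CPM in counterpart cells. Gbp4, Gbp6, Tgtp1 and Tgtp2 had log2 ratios of 1.22, 1.58, 1.21 and 1.32. All these GTPases were higher in each gated sum than in the counterpart sum of the same library.

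After thinning to 1500 UMIs, 15% and 12.7% of gated sgArid1a cells and 9.21% and 12.9% of gated sgScr cells held a Gbp4 UMI, against 6.15% and 8.24% and 6.14% and 7.72% of counterpart cells. The B cell gene Cd79a, which T cells lack, was found in no gated cell at that depth and in at most 0.683% of counterpart cells. Other members of the pathway stood closer together. The feedback inhibitor Socs1 had 158 and 163 CPM in sgArid1a and 120 and 142 CPM in sgScr gated cells, against 82.8 and 99.5 CPM and 85.2 and 82.9 CPM in counterpart cells. Irf1, an interferon-induced transcription factor, had 164 and 212 CPM in sgArid1a and 178 and 190 CPM in sgScr gated cells, against 169 and 152 CPM and 137 and 153 CPM. In sgArid1a replicate 1 it was thus not higher in the gated cells. The receptor chain Ifngr2 was among the 10 lowest ratios (log2 −1.06), at 5.96 and 12.1 CPM in sgArid1a and 9.77 and 14.5 CPM in sgScr gated cells, against 15.5 and 23.5 CPM and 26.3 and 27.6 CPM in counterpart cells. Of the 13 genes for receptor, signalling and feedback, 12 reached 20 CPM in either class. Of these 12, 4 were higher and 3 lower in all 4 libraries, beside 604 higher and 772 lower among the 4998 genes.

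Among the 19 there were also the RNA sensor kinase Eif2ak2 (log2 ratio 1.69), the antiviral gene Rtp4 (1.30), the nucleic acid sensor Zbp1 (1.18), the surface proteins Ly6a (1.26) and Ly6c2 (1.10), the transcription factor Irf8 (1.11), the receptor Cd160 (1.16), and Bcl2a1d, Ctla2a, Ctla2b, Cdca7l and G0s2 (up to 1.17). Of 33 type I interferon-stimulated genes, a list without the 5 that the rule bounds, 22 reached 20 CPM in either class. Of these 22, 8 were higher and 1 lower in all 4 libraries. Of 17 antigen processing and MHC class I genes, 10 were higher and 0 lower in all 4. Of 24 oxidative phosphorylation genes, 17 were higher and 0 lower in all 4. These counts stand beside 604 higher and 772 lower among the 4998 genes at 20 CPM or more in either class.

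Most genes of the naive and central memory state were lower in the gated cells. Of 22 such genes, 15 were lower and 1 higher in all 4 libraries. Among the 4998 genes at 20 CPM or more in either class, 772 were lower and 604 higher in this way. Ccr7, the receptor that guides T cells into lymph nodes, had 224 and 326 CPM in sgArid1a and 555 and 446 CPM in sgScr gated cells, against 415 and 487 CPM and 689 and 637 CPM in counterpart cells. Of 16 quiescence genes, 15 reached 20 CPM in either class, and of these 10 were lower and 0 higher in all 4. The lowest ratios were those of the granzyme gene Gzmk (−2.28), the heat shock genes Hspa1a (−1.38) and Hspa1b (−1.16), Tmie, Pcmtd2, Itgae, Tsc22d3, Plekho1 and the chemokine receptor Ccr9 (−1.07). Against the bulk of the infiltrate the summed naive list stood higher in the gated cells, while Il7r was mixed. The list summed to 2996 and 3714 CPM in sgArid1a and 5466 and 5296 CPM in sgScr gated cells. All other cells had 2192 and 2224 CPM and 4396 and 4335 CPM. Ccr7 was at 224 and 326 CPM in sgArid1a and 555 and 446 CPM in sgScr gated cells. All other cells had 153 and 163 CPM and 385 and 375 CPM of Ccr7. Lgals1, a galectin of effector cells, was at 352 to 441 CPM against 1038 to 2404 CPM. After thinning to 1500 UMIs, 28.75% and 39.0% of gated sgArid1a and 69.7% and 57.1% of gated sgScr cells held Il7r. Of all other cells, 38.3% and 38.4% and 59.0% and 57.8% did. The part of the rule's bounds on effector, exhaustion and cycling genes was not tested.

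**Figure D3:**
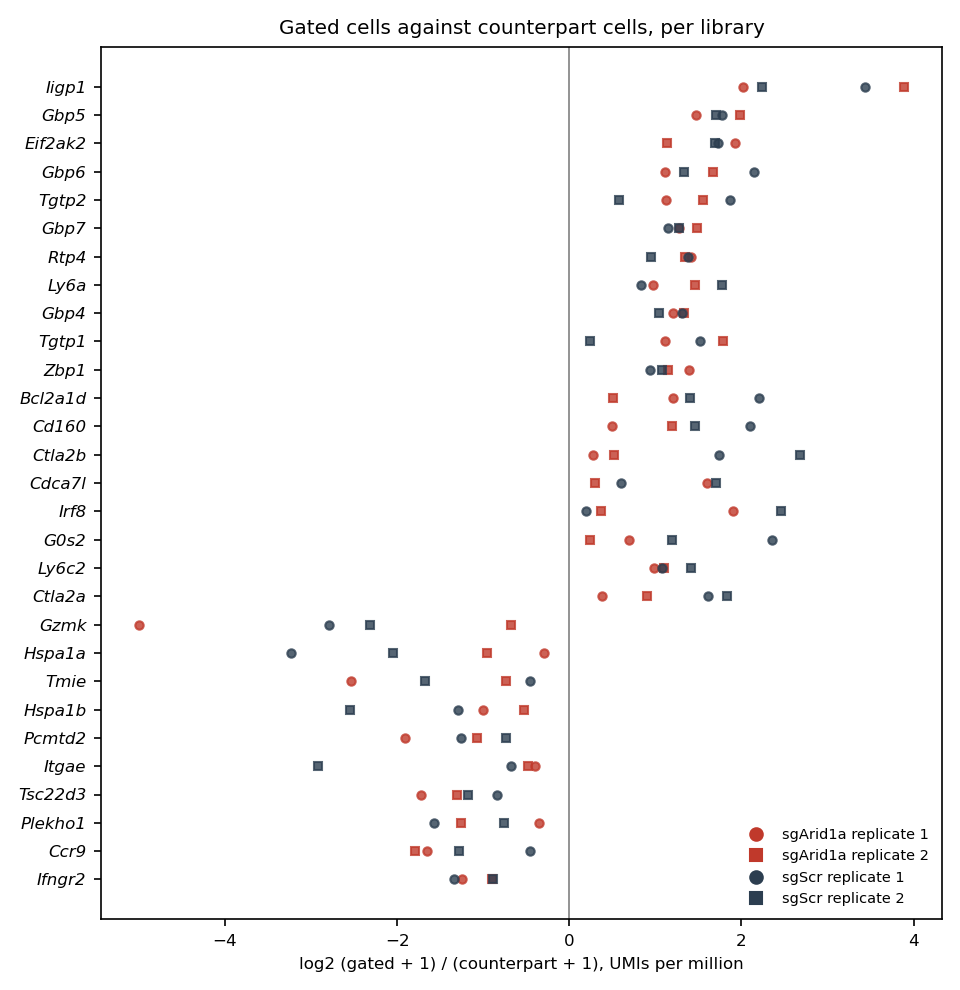
Log2 ratio of gated over counterpart cells (x axis, CPM with 1 added to each) for 19 genes with the highest and the 10 with the lowest ratio, 1 point per library. Iigp1 at the top had a mean log2 ratio of 2.77 and Gzmk a ratio of −2.28.

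The 170 type I interferon cells, which had at least 3 summed UMIs of the 5 bounded genes and met the other terms, offered a second comparison. They numbered 40 and 75 in sgArid1a and 29 and 26 in sgScr. The type I list, of which 33 genes were matched, summed to 2006 and 2303 CPM in gated cells of sgArid1a and 1837 and 1897 CPM in those of sgScr, against 6321 and 5435 CPM and 4592 and 6474 CPM in the type I cells. The GTPase list summed to 1124 and 1339 CPM in gated cells of sgArid1a and 960 and 916 CPM in those of sgScr, against 1629 and 2016 CPM and 1216 and 1316 CPM in the type I cells. The summed GTPases were thus also higher in the type I cells than in the gated cells. The type I cells of sgArid1a replicate 1 summed to 3086 CPM over dendritic and class II genes and to 275 CPM over natural killer genes, where its gated cells had 77.5 and 95.4 CPM. The type I cells of the other 3 libraries had 43.6 to 51.7 CPM of the first list and 8.71 to 79.1 CPM of the second. The part of this material in the sums was not tested. Of the type I cells, 17 and 49 in sgArid1a and 9 and 5 in sgScr reached 3 UMIs of the 3 genes. Gbp5 was an exception in sgScr, with 36.7 and 43.4 CPM (15 and 18 UMIs) in gated cells and 19.4 and 17.4 CPM in type I cells. The type I values are near the floor and rest on few UMIs. The lowest nonzero list sums in the sgScr type I cells were 6.47 and 8.71 CPM.

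The gated cells varied with the marker that admitted them. Id3 was held by 42 of 82 and 120 of 206 sgArid1a cells and by 28 of 76 and 32 of 71 sgScr cells, and 66 of all 435 held both Id3 and Treml2. The remaining 213 cells with Treml2 alone and 156 with Id3 alone differed in the same way in every library for most of the genes looked at. Naive genes stood higher with Treml2 alone: Il7r averaged 654 CPM over the 4 libraries (304 to 915), against 213 CPM (100 to 318) with Id3 alone, and Ccr7 543 CPM (345 to 767) against 256 CPM (164 to 411). Tsc22d3 averaged 297 CPM with Treml2 alone and 65.2 CPM with Id3 alone. Pathway genes were on the same side, with Gbp2 at 413 and 158 CPM, Gbp4 at 149 and 75.3 CPM, and Socs1 at 186 and 107 CPM. Id3 alone went with Ms4a4c, at 366 CPM against 235 CPM with Treml2 alone, with Cd160 at 162 against 16.1 CPM, and with Lgals1 at 557 against 202 CPM. Each of these 9 orders held in 4 of 4 libraries. Cells with Id3 alone were deeper, with median UMIs of 4481.5 and 5434 in sgArid1a and 6079.5 and 4907 in sgScr, against 2733 and 4393 and 4231 and 4611 with Treml2 alone. These contrasts follow from the rule's own genes and were not tested.

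The antigen receptors of the gated cells used many Trbv segments. Between 16 and 19 Trbv segments were seen among the 58 and 177 sgArid1a and 65 and 62 sgScr gated cells with a called segment. Trbv20, which was more common in sgArid1a than in sgScr outside the gate, was carried by 1.72% and 1.69% of gated sgArid1a cells and 3.08% and 4.84% of gated sgScr cells, against 8.46% and 7.91% and 2.65% and 2.48% of all other cells. The gated Trbv20 shares rest on 1 and 3 cells in sgArid1a and 2 and 3 cells in sgScr. Trbv13-1 was carried by 12.1% and 4.52% of gated sgArid1a cells and 6.15% and 3.23% of gated sgScr cells, against 14.3% and 13.5% and 7.63% and 8.01% of all other cells. Cells that held more than 1 Trbv segment, a class that takes in doublets, made up 6.10% and 15.5% of gated sgArid1a cells and 14.5% and 8.45% of gated sgScr cells, against 6.75% and 13.1% and 11.1% and 10.6% of the rest.

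The group comparison asked whether gated cells differed between sgArid1a and sgScr. The rule did not use the group label, so this contrast was tested on UMIs summed per library. Of 4421 genes that passed the low-count filter, 6 were called (0.136%) by edgeR's quasi-likelihood test at a Benjamini-Hochberg adjusted p under 0.05, with 2 higher (0.0452%) and 4 lower (0.0905%) in sgArid1a. The surface proteins Ly6c2 and Ly6a rose, and the cytokine receptor Il7r, the quiescence genes Tsc22d3 and Txnip, and the nuclear RNA Malat1 fell. An unadjusted p under 0.05 was reached by 618 genes (14%). Leaving out 1 library leaves a single library in a group, and the calls did not hold in each of these fits. The log2 change then ran from 1.13 to 1.29 for Ly6c2, 1.03 to 1.74 for Ly6a and −1.68 to −1.04 for Il7r. It ran from −2.22 to −1.34 for Tsc22d3, −1.12 to −0.91 for Txnip and −0.75 to −0.72 for Malat1. With a replicate block, Il7r, Txnip and Tsc22d3 lost the call (edgeR adjusted p = 0.199 each). Il7r and Txnip lost the call without cells carrying Trbv13-1 or Trbv20 (edgeR adjusted p = 0.0655 and 0.0717), and Il7r and Tsc22d3 after thinning to 2000 UMIs (edgeR adjusted p = 0.0636 and 0.135). With at least 5 summed UMIs none of the 6 was called (edgeR adjusted p from 0.0698 to 0.149). On simulated counts of this size the test recovered 43.7% of genes with a log2 change of 1 and 98.9% of those with 2.

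Ly6c2 (chr15:75108158-75111970) encodes Ly6C, a GPI-anchored surface protein of memory CD8 T cells that both kinds of interferon induce. It had 2221 and 2146 CPM in sgArid1a, against 919 and 1073 CPM in sgScr. Both sgArid1a libraries were above both sgScr libraries, with a log2 fold change of 1.19 ± 0.13 (SE; edgeR adjusted p = 0.00418). Ly6a (chr15:74994877-74998031), or Sca-1, had 629 and 815 CPM in sgArid1a, against 222 and 381 CPM in sgScr. Its log2 fold change was 1.33 ± 0.21 (edgeR adjusted p = 0.0392). Ly6c2 has a near-identical neighbour, Ly6c1, in the Ly6 cluster on chromosome 15, so their reads may have been shared between copies.

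Il7r (chr15:9505788-9530176), the interleukin-7 receptor that keeps naive and memory T cells alive, fell. It had 185 and 305 CPM in sgArid1a, against 704 and 576 CPM in sgScr (log2 −1.27 ± 0.20, edgeR adjusted p = 0.0392). Tsc22d3 (chrX:140539528-140600659) had 56.6 and 110 CPM in sgArid1a, against 313 and 258 CPM in sgScr (log2 −1.58 ± 0.24, edgeR adjusted p = 0.0392). In the gated cells of sgArid1a replicate 1 that value rests on 19 UMIs. DESeq2 gave Tsc22d3 no adjusted p (log2 −1.65), so it is not among the DESeq2 calls. Txnip (chr3:96557957-96561883), a restrainer of glucose uptake, had 173 and 210 CPM in sgArid1a, against 413 and 400 CPM in sgScr (log2 −1.01 ± 0.16, edgeR adjusted p = 0.0392). Malat1 (chr19:5795690-5802672) had 2334 and 2503 CPM in sgArid1a, against 4129 and 4331 CPM in sgScr (log2 −0.75 ± 0.10, edgeR adjusted p = 0.0296). None of the 4 overlapped between groups, where 27.6% of all genes tested were lower in sgArid1a without overlap and 20.9% higher.

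The share of Treml2 cells, which had more Il7r, Tsc22d3 and Txnip, also differed between groups, with 46 of 82 and 126 of 206 gated sgArid1a cells and 58 of 76 and 49 of 71 gated sgScr cells holding Treml2. Among cells with a Treml2 UMI alone or together with Id3, all 6 genes were called again, with log2 changes of −0.97 for Il7r, −1.45 for Tsc22d3 and −0.88 for Txnip. Among cells with an Id3 UMI, 1 gene was called, Ly6c2 (0.97), and Il7r (−1.21), Tsc22d3 (−1.15) and Txnip (−1.03) kept their sign.

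All 6 genes were called in the same direction in the counterpart cells, where 650 of 8553 genes were called (7.6%), and in all other cells, where 6952 of 12809 were called (54.3%). Il7r changed by −0.89 in counterpart cells and −1.18 in all other cells, and Tsc22d3 by −1.23 and −1.83. The numbers of calls differ with the number of cells summed, so they do not compare the classes. The difference in group effect was tested as an interaction with the library as a block. Against counterpart cells it was called for none of the 6. Against all other cells it was called for Ly6c2 alone, whose group effect was 0.75 ± 0.11 higher in the gated cells (edgeR adjusted p = 8.67e-09). Ly6c2 in all other cells was at 1189 and 1290 CPM in sgArid1a and 944 and 882 CPM in sgScr.

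**Figure D4:**
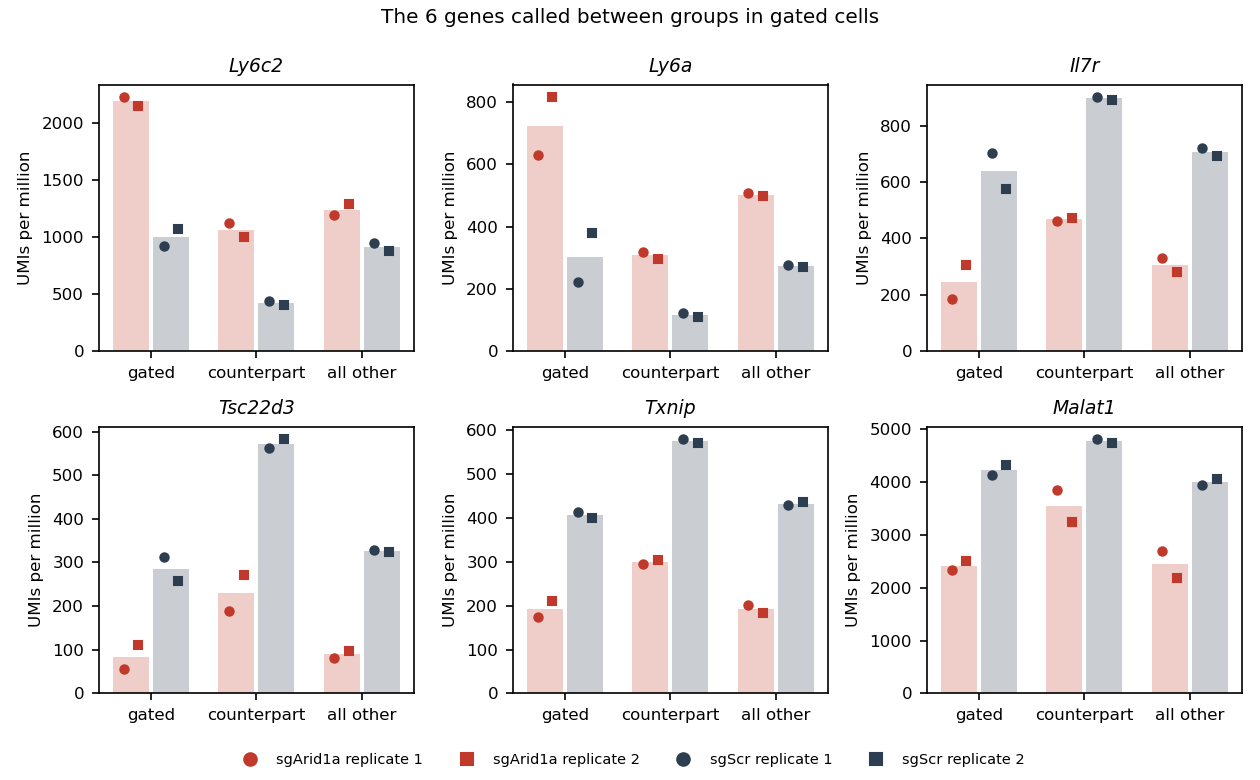
Level in CPM (y axis) of the 6 genes called between groups in the gated cells, shown in gated, counterpart and all other cells, with sgArid1a left of sgScr. Points are libraries and bars are means of 2 libraries. Ly6c2 and Ly6a were higher, and Il7r, Tsc22d3, Txnip and Malat1 lower, in sgArid1a in all 3 classes.

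None of the tested genes of the interferon GTPase, signalling, antigen processing and type I lists was called between groups by edgeR. Of 15 GTPases, 10 passed the filter and 0 were called by edgeR, with 8 above and 2 below 0 and a median log2 fold change of 0.22. Over all genes tested, 49.7% lay above and 50.3% below 0. Of the 10, 4 lay above 0 at an unadjusted p under 0.05, where 7.28% of all genes lay above and 6.7% below 0 at that level. DESeq2 called 1 of the GTPases, Ifi47. DESeq2 gave an adjusted p to 479 of the 4421 genes, of which 16 were higher (3.34%) and 7 lower (1.46%), and its counts for lists are to be read against these shares. A member without a DESeq2 adjusted p could not be called by it, so a list count of 0 by DESeq2 is no result for such members. Ifi47, an immunity-related GTPase, had 444 and 519 CPM in sgArid1a, against 286 and 316 CPM in sgScr (log2 0.74 ± 0.15, edgeR adjusted p = 0.126), and Irgm1 had 65.6 and 62.3 CPM against 39.1 and 24.1 CPM (1.04 ± 0.31, edgeR adjusted p = 0.209). Neither overlapped between groups, as for 20.9% of all genes higher in sgArid1a. Gbp4, with 113 and 117 CPM in sgArid1a and 103 and 111 CPM in sgScr, and Gbp5, with 41.7 and 46.8 CPM against 36.7 and 43.4 CPM, lay close together. Of 11 receptor, signalling and feedback genes tested, 0 were called by edgeR and 0 by DESeq2 (1 above and 1 below 0 at an unadjusted p under 0.05, median 0.13). Irf1 had a log2 change of 0.12 ± 0.18 and Socs1 0.34 ± 0.19.

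Of 17 antigen processing genes, 0 were called by edgeR and 5 lay above and 1 below 0 at an unadjusted p under 0.05 (median 0.16). DESeq2 called 3 as higher, Psme1, Psme2 and Psmb8, against 3.34% of the genes to which it gave an adjusted p. The 5 that lay higher were the immunoproteasome subunits Psmb8 and Psmb9 and Psmb10 and the proteasome activators Psme1 and Psme2. Psme2 had 853 and 874 CPM in sgArid1a, against 484 and 588 CPM in sgScr (log2 0.74 ± 0.14, edgeR adjusted p = 0.0947). The MHC class I heavy chains H2-K1 and H2-D1 had log2 changes of −0.11 ± 0.15 and −0.30 ± 0.14, and B2m 0.18 ± 0.12. Of 22 type I interferon-stimulated genes tested, 0 were called by edgeR and 0 by DESeq2 (6 above and 1 below 0 at an unadjusted p under 0.05, median 0.11). Rtp4, among them, had 101 and 92.6 CPM in sgArid1a, against 48.9 and 50.6 CPM in sgScr (0.98 ± 0.25, edgeR adjusted p = 0.160). For genes near a log2 change of 1 the depth of the gated sums found fewer than 1 in 2 in simulation, so differences of that size may have been missed.

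Nearly all naive and central memory genes lay below 0. Of 21 genes tested, 1 fell (Il7r), where 0.0905% of all genes did, and 20 lay below 0, where 50.3% did. Groups did not overlap for 17 of these, against 27.6% of all genes lower without overlap. The median log2 change was −0.57. DESeq2 called 3 as lower, Il7r, Ccr7 and Klf2, against 1.46% of the genes to which it gave an adjusted p. Ccr7 had 224 and 326 CPM in sgArid1a, against 555 and 446 CPM in sgScr (−0.77 ± 0.19, edgeR adjusted p = 0.145). Lef1 had 212 and 199 CPM in sgArid1a, against 354 and 321 CPM in sgScr (−0.68 ± 0.17, edgeR adjusted p = 0.145), and Klf2 had 259 and 443 CPM against 738 and 668 CPM (−0.89 ± 0.20). Of 12 quiescence genes tested, 2 fell and all 12 lay below 0 (median −0.65), against 0.0905% and 50.3% of all genes. DESeq2 called 1 of them as lower, Txnip, against 1.46% of the genes to which it gave an adjusted p. Klf3 was next to the threshold, with 47.7 and 60.6 CPM in sgArid1a against 181 and 133 CPM in sgScr (−1.43 ± 0.25, edgeR adjusted p = 0.0622).

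The cytotoxic list summed to 1622 and 1869 CPM in sgArid1a and 1686 and 1278 CPM in sgScr gated cells, against 5253 and 5163 CPM and 2809 and 2810.4 CPM in all other cells. Much of the gated sum was Nkg7, a granule protein gene, at 1145 and 1061 CPM in sgArid1a and 1009 and 875 CPM in sgScr. The receptor-induced early list was at a like level inside and outside the gate, with 1327 and 1513 CPM in sgArid1a and 1158 and 1138 CPM in sgScr gated cells, against 1309 and 1388 CPM and 1187 and 1205 CPM in all other cells. Of 20 cytotoxic genes 7 passed the filter, and 0 were called by edgeR and 0 by DESeq2 (2 above and 1 below 0 at an unadjusted p under 0.05). Gzmb was at 11.9 and 17.3 CPM in sgArid1a and 2.44 and 2.41 CPM in sgScr gated cells, against 432 and 497 CPM and 154 and 168 CPM in all other cells. Tnfrsf9, the receptor 4-1BB of stimulated T cells, had 35.8 and 83.1 CPM in sgArid1a, against 14.7 and 24.1 CPM in sgScr (1.85 ± 0.42, edgeR adjusted p = 0.142). Of 8 tested exhaustion genes, 0 were called by edgeR and 0 by DESeq2, with 1 above 0 at an unadjusted p under 0.05. For this list and the cytotoxic one, members without a DESeq2 adjusted p could not be called by DESeq2. Its counts of 0 are therefore no second result. All 24 oxidative phosphorylation genes lay above 0 (median 0.35), where edgeR called 0, DESeq2 called 1 (Atp5g1) and 11 had an unadjusted p under 0.05. All 14 tested heat shock and dissociation genes lay above 0 too (median 0.54), where edgeR called 0, DESeq2 called 2 (Hspa8 and Hsp90aa1) and 8 had an unadjusted p under 0.05. Of 12 glycolysis genes, 10 lay above 0 (median 0.36), where edgeR called 0, DESeq2 called 1 (Ldha) and 3 had an unadjusted p under 0.05. Over all genes tested 49.7% lay above 0, 7.28% did so at an unadjusted p under 0.05, and DESeq2 called 3.34% of its genes as higher. The heat shock genes also respond to tissue digestion, and their part in the group difference was not tested. Arid1a itself was at 68.6 and 70.1 CPM in sgArid1a and 73.3 and 67.5 CPM in sgScr gated cells (0.02 ± 0.24), which checks nothing about editing, since the labels do not name the edited cells.

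Over genes tested in all 3 classes, the median log2 change of the 21 naive genes was −0.57 in gated, −0.46 in counterpart and −1.10 in all other cells. That of the 9 GTPases was 0.22, 0.17 and 0.19. That of the 7 cytotoxic genes was 0.27, 0.70 and 0.54, and that of 16 memory genes 0.09, 1.07 and 0.37. These lists are given as values, and the difference between classes was not tested for a list.

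**Figure D5:**
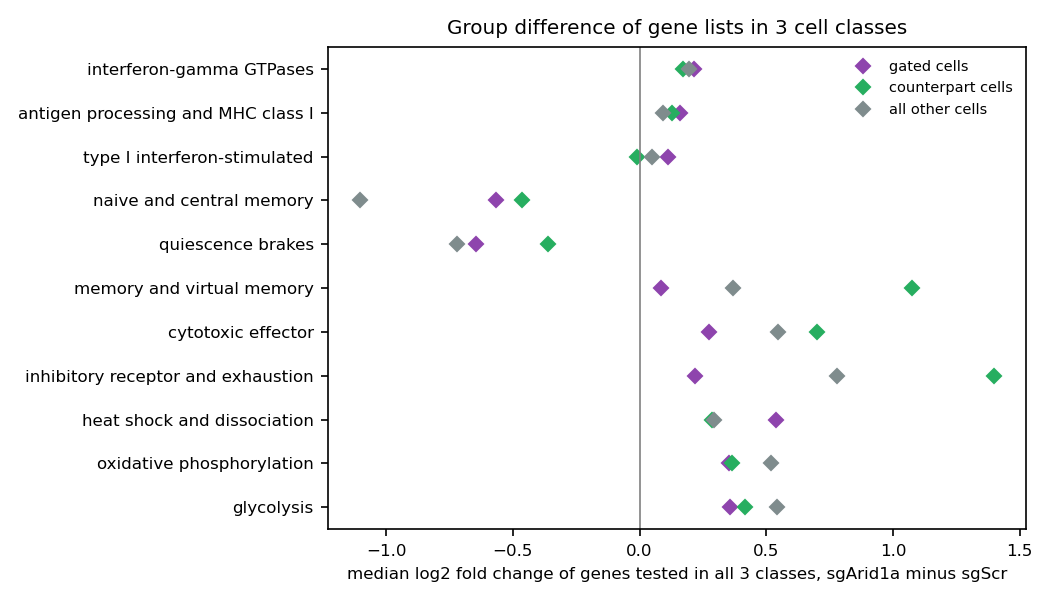
Median log2 fold change, sgArid1a minus sgScr (x axis), of 11 gene lists (y axis) over members tested in all 3 cell classes, in gated, counterpart and all other cells. The naive and central memory list lay below 0 in all 3 classes (−0.57, −0.46 and −1.10), and the GTPase list between 0.17 and 0.22.

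Gene by gene, the group effect in gated cells differed from that in all other cells for 71 of 12055 genes (0.589%), 39 higher (0.324%) and 32 lower (0.265%), in edgeR's interaction test. A limma fit on per-library log2 ratios, added after the data were seen, called 0, with 316 genes at an unadjusted p under 0.05. The edgeR calls draw on a spread shared over genes and are given with that limit. Besides Ly6c2, the naive gene Igfbp4 had a higher group effect in the gated cells. Igfbp4 had 131 and 182 CPM in sgArid1a and 191 and 263 CPM in sgScr gated cells, against 45.3 and 56.2 CPM and 147 and 145 CPM in all other cells (difference 1.08 ± 0.20, edgeR adjusted p = 5.95e-05). It was thus less far below sgScr in the gated cells than elsewhere. Fam241a (1.08 ± 0.21) and Tmem108 (1.34 ± 0.28) were called the same way.

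The lower calls included genes of activated cells, and single cells carried much of their counts. Xcl1, a chemokine gene, had 230 and 474 CPM in sgArid1a and 484 and 154 CPM in sgScr gated cells, against 480 and 425 CPM and 106 and 126 CPM in all other cells (difference −1.62 ± 0.16, edgeR adjusted p = 1.04e-19). In the sgScr libraries 82.8% and 51.6% of the gated Xcl1 UMIs came from 1 cell each. Without the top cell of each library the values were 185 and 343 CPM in sgArid1a and 83.1 and 74.7 CPM in sgScr. Nrgn had 14.9 and 74.5 CPM in sgArid1a and 132 and 36.2 CPM in sgScr gated cells (difference −2.59 ± 0.27, edgeR adjusted p = 2.00e-18), of which 60% and 23.3% in sgArid1a and 61.1% and 66.7% in sgScr came from 1 cell each. Lgals1 rested less on single cells, with at most 16.7% from 1 cell. It had 352 and 427 CPM in sgArid1a and 352 and 441 CPM in sgScr gated cells, against 2404 and 2355 CPM and 1039 and 1038 CPM in all other cells (−1.12 ± 0.13, edgeR adjusted p = 1.96e-14). S100a6 (−2.001 ± 0.21) and Capg (−1.92 ± 0.30) were called the same way.

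Against counterpart cells the group effect differed for 10 of 7741 genes (0.129%), 1 higher (0.0129%) and 9 lower (0.116%), and limma called 0 (224 at an unadjusted p under 0.05). S100a6, a calcium-binding protein of effector and memory cells, had 53.7 and 60.6 CPM in sgArid1a and 147 and 128 CPM in sgScr gated cells, against 127 and 97.6 CPM and 25.4 and 17.5 CPM in counterpart cells (difference −3.48 ± 0.29, edgeR adjusted p = 1.81e-08). Without the top cell of each library the gated values were 26.8 and 52.8 CPM in sgArid1a and 90.4 and 67.5 CPM in sgScr. The costimulatory receptor Tnfrsf4, or OX40, had 20.9 and 26.8 CPM in sgArid1a and 73.3 and 43.4 CPM in sgScr gated cells, against 44.2 and 32.7 CPM and 4.08 and 9.70 CPM in counterpart cells (−3.53 ± 0.49, edgeR adjusted p = 0.000375). Its gated values without the top cells were 2.98 and 19.9 CPM in sgArid1a and 21.99 and 21.7 CPM in sgScr. The integrin Itgb1 (−1.77 ± 0.28), Nrgn (−3.16 ± 0.50) and Nrn1 (−3.28 ± 0.52) were the other named calls.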

How the data were processed

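Libraries of CD8 T cells from B16F10 tumours were deposited as 4 matrices of raw UMI counts, 32285 genes each, 1 per sample. The deposited counts had no normalization, and per the file headers they were made with Cell Ranger 6.0.1. Per the submitters' processing notes the tools were Cell Ranger 3.0.2 and Seurat, with build mm10. The annotation release and any doublet removal are not given in the sources used here. Library totals were 39713825 and 81916795 UMIs in sgArid1a and 35881501 and 32484099 in sgScr. Gene positions are from GENCODE M21 (GRCm38). Of 39473 barcodes, 38316 were kept, with a minimum of 500 genes and a maximum of 10% mitochondrial UMIs. No doublet caller was run.

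Raw counts were summed per library and cell class. edgeR 4.0.16 (R 4.3.3) fitted quasi-likelihood models with TMM and filterByExpr, and Benjamini-Hochberg adjustment ran over all genes tested. Interactions had the library as a block. Levels are CPM of the class sum, and ratios of levels used log2 of CPM plus 1. Alternatives used DESeq2 1.42.0, limma 3.58.1, other thresholds, thinning and left-out libraries. Models were tested on simulated data. Text names, without rule genes, receptor segments and predicted genes, were called genes of at least 20 CPM without overlap, called list members, a fixed set of pathway and naive genes, 19 of the 20 highest and the 10 lowest ratios to counterpart cells, and the 5 smallest p per direction of each interaction; other named list members were chosen after their values were seen. Members, rule and gene lists were chosen with earlier results of these data known. The symbols Mb21d1, Sting1, Mx1 and Mx2 had no match. Some named results are not reported here.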

Additional observations from a re-analysis of the deposited data

Results flagged for a closer look

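In 14 comparisons of named genes the difference between sgArid1a and sgScr was not the same in gated cells as in another cell class, by the edgeR interaction test. Against all other cells the log2 difference in group effect was 0.75 for Ly6c2, 1.08 for Igfbp4, 1.08 for Fam241a and 1.34 for Tmem108, all higher in gated cells. It was −1.62 for Xcl1, −2.59 for Nrgn, −2.001 for S100a6, −1.12 for Lgals1 and −1.92 for Capg, all lower in gated cells. Against counterpart cells it was −3.48 for S100a6, −3.53 for Tnfrsf4, −1.77 for Itgb1, −3.16 for Nrgn and −3.28 for Nrn1. Nrn1 rested on 3 and 30 UMIs in sgArid1a and 13 and 10 UMIs in sgScr gated cells, and 66.7% and 46.7% of these in sgArid1a and 92.3% and 80.0% in sgScr came from 1 cell per library. None of the 14 passed in limma on per-library ratios, where the lowest adjusted p was 0.387.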

How the results depend on the processing

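Within gated cells, the 6 calls became 121 with no filter on low counts, 323 with a sum of at least 2 UMIs, 0 with at least 5, 29 without cells holding 2 Trbv segments, 12 after thinning to 2000 UMIs (4 of the 6 among them), 4 without Trbv13-1 and Trbv20 cells, 27 without cells holding other cell type UMIs (added after seeing the data), 23 with DESeq2, 1 in cells with an Id3 UMI, 12 in cells with a Treml2 UMI and 340 with no upper bounds. Leaving out 1 library gave 0 to 277. With a replicate block 3 genes were called; same-numbered libraries did not deviate together (r = −0.05 over 4421 genes), so the number is only a name. With a single library left in a group, it is assumed to vary like the other group. The differences from all other cells, 71, became 153 with at least 2 UMIs, 15 with at least 5, 107 without cells holding 2 Trbv segments, 0 after thinning, 18 without Trbv13-1 and Trbv20 cells, 0 with limma, and 27 to 83 without 1 library. Those from counterpart cells, 10, became 19 with no filter, 5 with at least 2 UMIs, 6 with at least 5, 1 after thinning, 6 without cells holding other cell type UMIs, 0 with limma, and 5 to 38 without 1 library. The log2 ratio of shares, 0.26, became −0.14 with at least 2 UMIs, 1.19 of cells meeting the other terms, 0.85 with no upper bounds, 1.02 and 1.34 thinned to 2000 and 1500 UMIs, 1.60 and 1.86 for both together, and −0.37 to 0.70 without 1 library. The cause was not tested.

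Uncalled values changed sign: Arid1a to −0.17 with at least 2 UMIs, −0.071 without the 2 segments and −0.085 with no upper bounds; Cd3e to 0.023 and Ms4a4b to 0.040 with no filter; Ms4a4b to 0.058 with at least 2 UMIs and 0.083 with Id3; Irf1 to −0.63 thinned and −0.12 with Id3; Tap1 to −0.12 with Treml2. Without 1 library, Arid1a ran from −0.0501 to 0.13, Cd3e from −0.24 to 0.11, Ms4a4b from −0.13 to 0.071, Irf1 from −0.059 to 0.24 and Tap1 from −0.13 to 0.32. After thinning, Gbp4 was −0.60 and Gbp7 −0.39, and the differences from all other cells were 1.93 for Xcl1, 6.24 for Nrgn, 1.24 for S100a6, 0.049 for Lgals1 and 10.01 for Capg, and from counterpart cells 2.26 for Nrgn and 4.03 for Nrn1. The thinned gate held 7 to 39 cells per library, which limits these values. The median of the naive list ran from −0.91 to −0.40, and that of the GTPases from −0.39 to 0.64.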
